A study of Lactuca sativa with 9 samples.

Results

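Leaves of lettuce (Lactuca sativa) grown in high light were compared with leaves grown in low light. The samples were chosen by their treatment label alone: the 3 Las_SL libraries (replicates at 340 µmol per square metre per second) and the 3 Las_WL libraries (60 µmol) are 6 of the 9 samples of the series. The other 3 samples, Las_ML, were grown at 175 µmol and serve as the intermediate dose. All plants belonged to the cultivar Hong Kong Glass and were sampled as leaf tissue at an age of 24 days. The groups thus shared genotype and age and differed in light intensity. The methods describe a photoperiod shared by all groups and 3 biological replicates, with leaf material mixed within a sample. Parts of the study's text exchange the intensities of these groups, and the labels, which were followed here, give the higher one to Las_SL. Some gene symbols cover several assembled loci, and the values below are those of the annotated locus. Of 35342 genes in the deposited table, 26121 averaged 0.5 FPKM or more over the 6 libraries and were tested. FPKM (fragments scaled by transcript length and by the library's mapped fragments) holds no read counts. The study lists the reads of each library, but the number behind a single gene's value cannot be read from the FPKM, and precision was judged from the replicates.

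Light drives photosynthesis and is read by photoreceptors, the phytochromes, cryptochromes and phototropins. Shade-grown leaves invest in light-harvesting antennae, whereas strong light is known to raise flavonoid and anthocyanin synthesis, which screens the leaf, and the systems that remove reactive oxygen species. Both programmes act partly through transcription, with B-box, MYB, bHLH, AP2/ERF and WRKY proteins among the factors involved.

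Las_WL 1 and Las_SL 2 stood apart, and for some gene lists below the values without them are also given. Why these 2 libraries differed was not tested. Las_WL 1 lay at -141.97 on the first principal component and Las_SL 2 at 84.23, while the other 7 libraries lay between -31.71 and 46.82. This component held 51.3% of the variance and did not follow light, whereas the second (18.7%) placed the Las_SL libraries at -44.00 to -31.87, Las_ML at -12.20 to 4.18 and Las_WL at 7.81 to 62.84. The summed FPKM of 92 histone genes was 5907, 1586 and 3417 in Las_SL 1, 2 and 3, against 19960, 1630 and 1328 in Las_WL 1, 2 and 3. Las_WL 1 was thus above every other library in these markers of dividing cells. The 7 Rubisco small subunit genes, markers of mesophyll, summed to 16000, 9637 and 11540 FPKM in Las_SL, against 8824, 28600 and 24790 FPKM in Las_WL. Rubisco transcripts were abundant in every library, as the leaf label implies, and Las_WL 1 was the lowest of all 9. Among the other cell types, laticifer genes summed to 268 to 300.1 FPKM in Las_SL and 166 to 222 in Las_WL. Of 17 tested laticifer members 2 were called up (11.8%, against 2.75% of all genes). Phloem genes summed to 99.0 to 107 in Las_SL and 60.6 to 83.6 in Las_WL. Epidermis genes summed to 3038 to 3880 in Las_SL and 2609 to 6826 in Las_WL. None of the listed markers was at 0 in all 9 libraries, and the part of cell composition in the results was not tested. In bulk leaf, fewer cells of a type and less RNA per cell cannot be told apart.

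**Figure D1:**
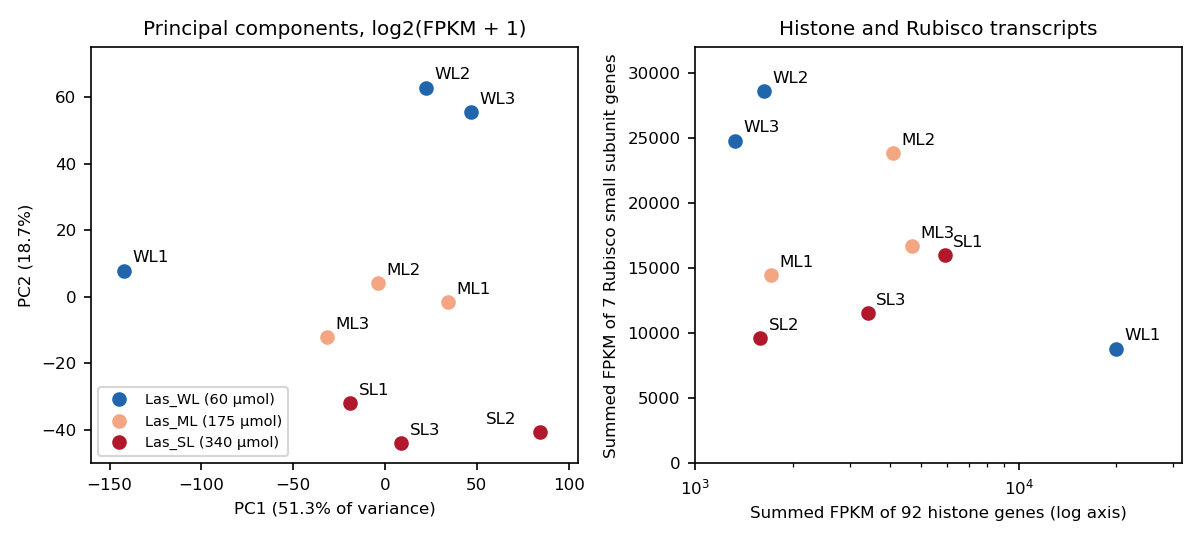
Left, each point is a library on the first and second principal components of log2(FPKM + 1), coloured by light group. Right, summed FPKM of 92 histone genes (log axis) against that of 7 Rubisco small subunit genes, with Las_WL 1 alone at 19960 histone and 8824 Rubisco FPKM.

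How many genes differed between high and low light was asked first. With limma on log2(FPKM + 1), fitted over all 9 libraries, 718 genes were higher in Las_SL (2.75% of the genes tested) and 53 were lower (0.203%) when a gene was called if its adjusted p lay under 0.05 and its log2 fold change was 1 or more in either direction. The adjusted p values of these calls were close to the threshold, with a median of 0.034. Quantile normalization left 5 genes up and 1 down, the 6 libraries alone left 1 up, a fit without Las_SL 3 left 0, and a fit without Las_WL 1 gave 853 up and 242 down, so a call below means a gene past the threshold in the fit over all libraries and not one stable in all fits. At an unadjusted p below 0.05, 6911 genes differed. The 3 Las_SL values did not overlap the 3 Las_WL values in 7118 genes that were higher (27.3%) and in 754 that were lower (2.89%). The surplus of higher genes moved with the scaling, since the median log2 fold change of all genes was 0.18 as deposited and -0.01 after quantile normalization, and the split turned to 3104 higher and 2452 lower genes (and to 2546 and 2862 when each library was centred on its median). The 10 most abundant genes took 21.5 to 24.5% of the summed FPKM in Las_SL, against 24.9 to 36.8% in Las_WL. Separation under all 4 scalings (as deposited, without the 10 most abundant genes, quantile-normalized and median-centred) was found for 2391 higher (9.15%) and 660 lower genes (2.53%). Gene groups below are described by these counts, by those as deposited or by both.

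**Figure D2:**
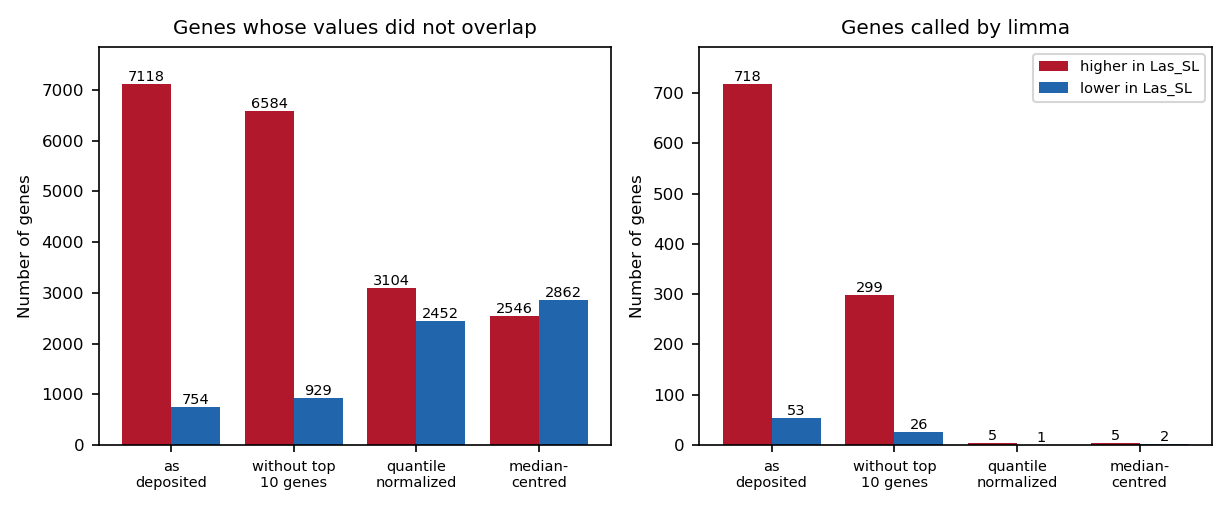
Number of genes higher (red) and lower (blue) in Las_SL than in Las_WL under 4 scalings, by separated values on the left and by the limma call on the right. Separated genes were 7118 higher and 754 lower as deposited, and 3104 and 2452 after quantile normalization.

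Among the genes with the largest increase in high light were enzymes of flavonoid synthesis. Chalcone synthase LOC111882072, the enzyme of the entry step into flavonoids, had 258, 165 and 222 FPKM in Las_SL, against 18.7, 4.37 and 31.1 FPKM in Las_WL (log2 fold change 3.82 ± 0.66 (SE), limma adjusted p = 0.029). Dihydroflavonol 4-reductase LOC111897350, which leads towards anthocyanins, had 175, 125 and 161 FPKM in Las_SL, against 12.2, 2.54 and 16.6 FPKM in Las_WL (4.03 ± 0.67, adjusted p = 0.028). In both genes every Las_SL value was several times the highest Las_WL value, and Las_WL 2 was the lowest library. Another member, LOC111881270, annotated as a putative flavanone 3-hydroxylase, had 6.75, 14.7 and 8.07 FPKM in Las_SL, against 0.623, 0.738 and 0.979 FPKM in Las_WL (2.54 ± 0.34, adjusted p = 0.024). Glutathione S-transferase LOC111880263, of a family that conjugates glutathione to other molecules, had 144, 101 and 110 FPKM in Las_SL, against 14.2, 2.92 and 17.9 FPKM in Las_WL (3.50 ± 0.59, adjusted p = 0.028). Chalcone synthase, dihydroflavonol 4-reductase and this transferase ranked the libraries alike, replicate 1 being highest and replicate 2 lowest in Las_SL, and replicate 3 highest and replicate 2 lowest in Las_WL.

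The family as a whole was divided between higher and overlapping members. Of 18 flavonoid and anthocyanin enzymes tested, 3 were called up (16.7%, against 2.75% of all genes) and 0 down. As deposited, 6 were higher and separated (33.3%, against 27.3%), 0 were lower and 12 had overlapping values. The second chalcone synthase, LOC111883451, had 93.6, 4.76 and 45.8 FPKM in Las_SL, against 62.5, 28.9 and 26.4 FPKM in Las_WL, and the chalcone isomerases and flavonol synthase LOC111900153 also overlapped. The list median was 0.05 log2 units, below the 0.18 of all genes tested. It was -0.14 after quantile normalization, against -0.01 for all genes. Without Las_SL 2 and Las_WL 1 it was 0.55, against 0.36 for all genes. There 10 of 16 members were higher and 0 lower, where 64.8% of all genes were higher and 8.94% lower.

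The general phenylpropanoid enzymes, which supply the substrate of chalcone synthase, stood lower in high light. Of the 8 tested members, 5 had lower and separated values in Las_SL as deposited (62.5%, against 2.89% of all genes) and 1 was higher. Under all 4 scalings 4 were lower (50.0%, against 2.53%) and 1 higher. The median log2 fold change of the 8 was -0.89. None of the 5 passed the test. Phenylalanine ammonia-lyase LOC111893052 (MSTRG.25671, the annotated one of 3 loci under this symbol), the first enzyme of the pathway, had 313, 264 and 313 FPKM in Las_SL, against 407, 951 and 1089 FPKM in Las_WL (-1.34 ± 0.38, adjusted p = 0.073). Cinnamate 4-hydroxylase LOC111886666 had 39.3, 10.1 and 24.5 FPKM in Las_SL, against 80.3, 50.5 and 155 FPKM in Las_WL (-1.95 ± 0.54, adjusted p = 0.066). The groups were separated in both genes, but those of the phenylalanine ammonia-lyase not under all 4 scalings. The exception was the 4-coumarate-CoA ligase-like gene LOC111893021, which passed the adjusted p (0.87 ± 0.15, adjusted p = 0.029) but not the fold threshold. Lignin branch enzymes gave 1 separated member in each direction of 25 under all 4 scalings, where all genes gave 9.15% higher and 2.53% lower.

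**Figure D3:**
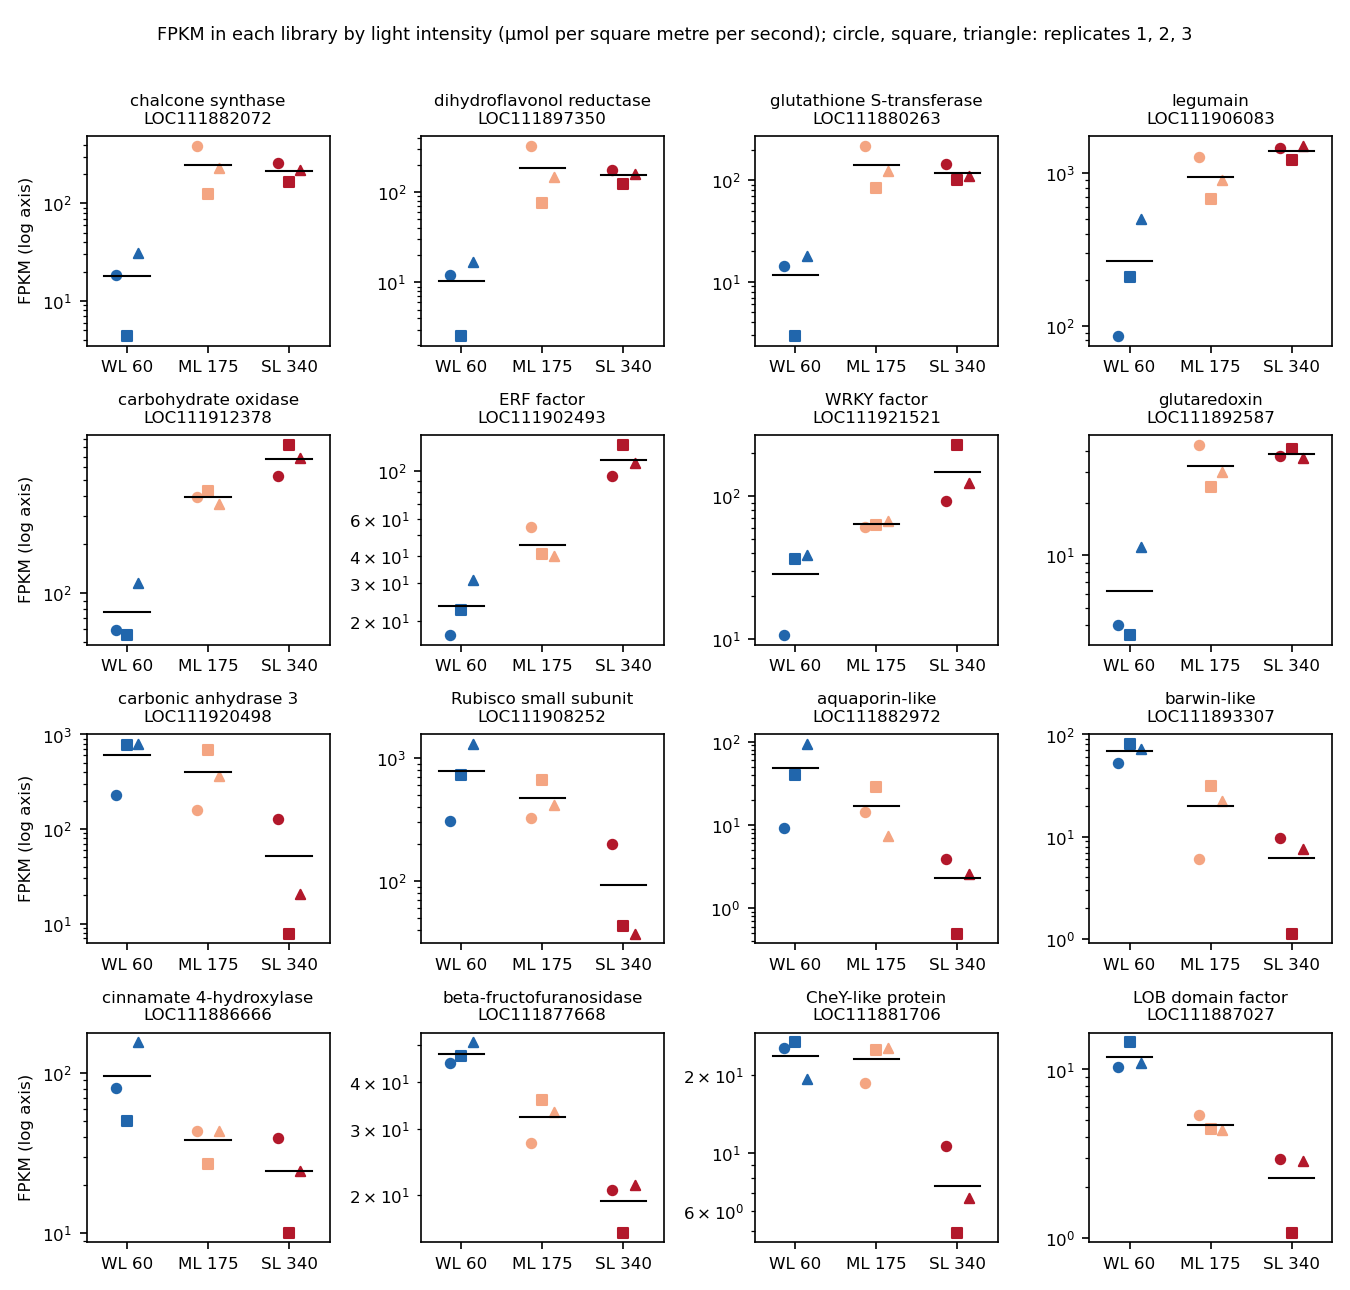
FPKM of 16 genes in each library (log axis) at 60, 175 and 340 µmol, with circle, square and triangle for replicates 1, 2 and 3 and a bar at the group mean. In all 16 the Las_SL points lie on one side of the Las_WL points, and chalcone synthase reaches its highest value, 391 FPKM, in a Las_ML library.

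Several families of transcription factors of stress and hormone responses had more increases than all genes. AP2/ERF proteins carry the DNA-binding domain of the ethylene-response factors, and 24 of 101 tested members were called up (23.8%, against 2.75% of all genes) and 0 down. Under all 4 scalings 30 were higher (29.7%, against 9.15%) and 1 was lower. LOC111905115 changed most among them, with 17.9, 19.9 and 33.6 FPKM in Las_SL, against 4.80, 4.31 and 0.895 FPKM in Las_WL (2.62 ± 0.55, adjusted p = 0.039). LOC111892118, annotated as an ethylene-responsive transcription factor, had 74.5, 101 and 96.5 FPKM in Las_SL, against 14.8, 25.8 and 14.4 FPKM in Las_WL (2.29 ± 0.25, adjusted p = 0.024). The ethylene-responsive factor 1B LOC111902493 (MSTRG.5203) had 94.8, 133 and 109 FPKM in Las_SL, against 17.1, 22.5 and 30.9 FPKM in Las_WL (2.23 ± 0.25, adjusted p = 0.024). The spread within each group of LOC111892118 was small beside the distance between the groups. The most abundant called member, LOC111917268 (MSTRG.13426), was singled out after its values were seen and had 720, 938 and 778 FPKM in Las_SL, against 104, 284 and 344 FPKM in Las_WL. The list median, 0.34, was 0.15 above that of all genes, so the increase lay in part of the family.

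WRKY proteins, a plant family of defence and senescence regulators, had 8 of 61 members called up (13.1%, against 2.75% of all genes) and 0 down. Under all 4 scalings 14 members were higher (23.0%, against 9.15%) and 1 was lower (1.64%, against 2.53%). Their median of 0.59 lay 0.41 above that of all genes. LOC111921521 had 92.1, 230 and 123 FPKM in Las_SL, against 10.6, 36.2 and 39.0 FPKM in Las_WL (2.42 ± 0.50, adjusted p = 0.038). LOC111885093 had 51.0, 93.7 and 58.5 FPKM in Las_SL, against 9.18, 19.4 and 29.3 FPKM in Las_WL (1.85 ± 0.40, adjusted p = 0.040). In both genes Las_SL 2 was the highest of the 6 libraries and Las_WL 1 the lowest, which are the libraries at the ends of the first component. Without these 2 libraries the list median was 0.52, against 0.36 for all genes. There 37 of 61 members were higher and 2 lower, where 64.8% of all genes were higher and 8.94% lower.

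NAC factors, known from development and senescence, gave 7 of 52 called up (13.5%, against 2.75% of all genes) and 0 down, with 11 higher (21.2%, against 9.15%) and 0 lower under all 4 scalings. Their median was 0.54, and 0.43 without Las_SL 2 and Las_WL 1, where that of all genes was 0.36. LOC111906263 had 50.8, 76.5 and 36.7 FPKM in Las_SL, against 4.40, 8.499 and 19.1 FPKM in Las_WL (2.40 ± 0.51, adjusted p = 0.039). LOC111906789 had 40.6, 48.4 and 67.3 FPKM in Las_SL, against 9.02, 19.6 and 15.1 FPKM in Las_WL (1.80 ± 0.37, adjusted p = 0.038). SBP-box factors, which act in phase change and are targets of miR156 in other plants, had 3 of 17 called up (17.6%, against 2.75%). Their leading member LOC111912405 had 13.7, 18.7 and 15.5 FPKM in Las_SL, against 0.688, 1.95 and 3.36 FPKM in Las_WL (2.59 ± 0.39, adjusted p = 0.025). In each of these factors the lowest Las_SL value was above the highest Las_WL value.

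MYB and SANT factors moved in both directions. Of 39 tested, 5 were called up (12.8%, against 2.75% of all genes) and 1 down (2.56%, against 0.203%). Under every scaling 8 were higher (20.5%, against 9.15%) and 5 lower (12.8%, against 2.53%). The MYB24-like LOC111894375 had 13.7, 8.201 and 10.2 FPKM in Las_SL, against 1.56, 0.997 and 1.94 FPKM in Las_WL (2.22 ± 0.22, adjusted p = 0.020), and it was among the few genes still called after median-centring (adjusted p = 0.042). LOC111881326, annotated Myb4-like, had 12.1, 12.2 and 18.8 FPKM in Las_SL, against 2.43, 2.94 and 2.18 FPKM in Las_WL (2.10 ± 0.41, adjusted p = 0.035). The called-down member, LOC111893763 (MYB9A), had 16.7, 9.15 and 14.6 FPKM in Las_SL, against 28.2, 34.9 and 37.1 FPKM in Las_WL (-1.28 ± 0.23, adjusted p = 0.030). Lateral organ boundaries (LOB) domain factors, which act at the borders of organs, had no separated member that was higher. LOC111887027 of this family had 2.93, 1.07 and 2.85 FPKM in Las_SL, against 10.4, 14.5 and 10.9 FPKM in Las_WL (-2.02 ± 0.27, adjusted p = 0.024). LOC111904218 had 0.269, 0.997 and 0.0861 FPKM in Las_SL, against 1.74, 12.5 and 9.21 FPKM in Las_WL (-2.37 ± 0.54, adjusted p = 0.045). Both were called down, of 12 LOB members tested (16.7%, against 0.203% of all genes).

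**Figure D4:**
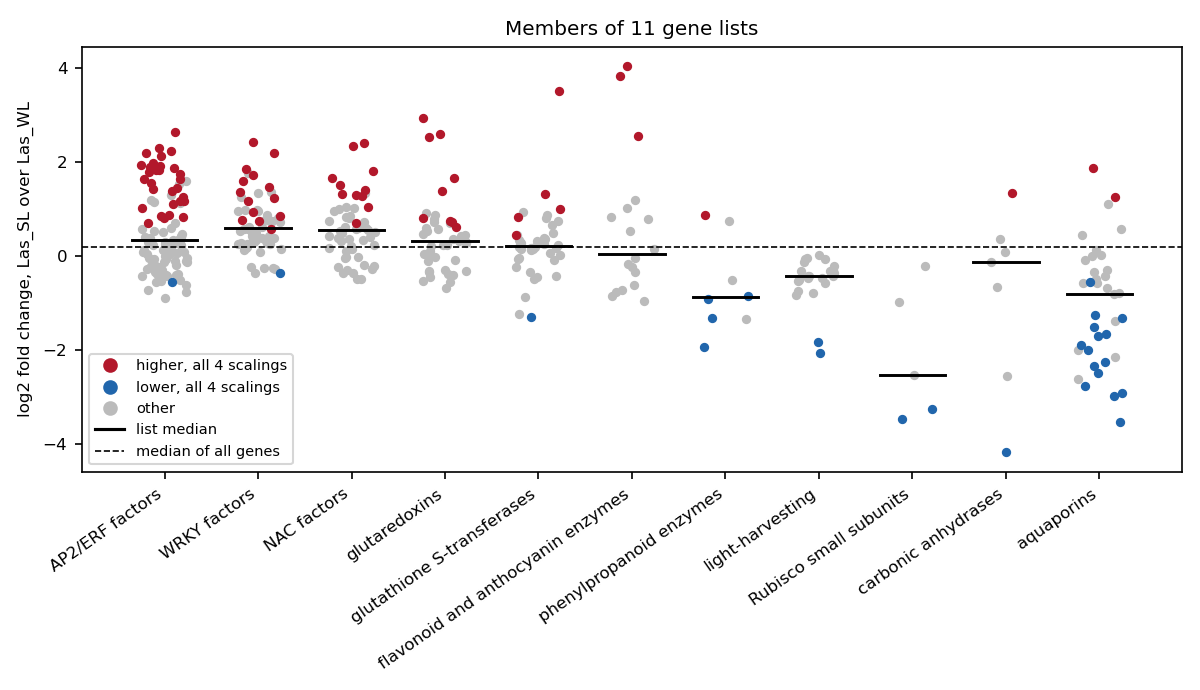
Log2 fold change, Las_SL over Las_WL, of each tested member of 11 gene lists, with red and blue for members higher and lower under all 4 scalings, a bar at the list median and a dashed line at the median of all genes (0.18). AP2/ERF, WRKY and NAC factors reach upward, and aquaporins (median -0.81) reach downward.

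The photoreceptor, B-box and clock list gave 2 of 19 called up (10.5%, against 2.75% of all genes). Under all 4 scalings 10.5% were higher, near the 9.15% of all genes. B-box factor LOC111913974, of a family that relays light signals, had 28.4, 27.0 and 28.6 FPKM in Las_SL, against 6.80, 12.1 and 16.4 FPKM in Las_WL (1.26 ± 0.28, adjusted p = 0.041). The second, LOC111895464, was separated as deposited (1.08 ± 0.24, adjusted p = 0.044) but not under all 4 scalings. Among the receptors themselves, phytochrome A LOC111896415 had 26.3, 36.2 and 23.7 FPKM in Las_SL, against 16.2, 21.3 and 16.9 FPKM in Las_WL. Phytochrome B LOC111911925 had 16.3, 11.4 and 15.5 FPKM in Las_SL, against 18.1, 22.8 and 23.9 FPKM in Las_WL. The log2 fold changes had opposite signs, 0.63 ± 0.19 for phytochrome A and -0.56 ± 0.19 for phytochrome B, and did not pass the test (adjusted p = 0.079 and 0.11).

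Among redox genes, glutaredoxins, small enzymes that reduce disulfides with glutathione, had 5 of 43 members called up (11.6%, against 2.75% of all genes) and 0 down, and 9 higher (20.9%, against 9.15%) and 0 lower under all 4 scalings. LOC111892731 had 20.04, 24.0 and 22.01 FPKM in Las_SL, against 1.04, 0.928 and 5.89 FPKM in Las_WL (2.94 ± 0.52, adjusted p = 0.030). LOC111892587 had 37.4, 40.9 and 36.3 FPKM in Las_SL, against 3.96, 3.48 and 11.2 FPKM in Las_WL (2.60 ± 0.38, adjusted p = 0.024). The called members LOC111892714, LOC111892722 and LOC111892731 lie side by side on chromosome 5 in the RefSeq annotation of Lsat_Salinas_v11, a later assembly than that of the files, and such neighbouring copies could share reads. Of 40 glutathione S-transferases 5.00% were called up and 12.5% were higher under all 4 scalings, nearer to the 2.75% and 9.15% of all genes. The 2 called were LOC111880263 and LOC111893115 (1.31 ± 0.29, adjusted p = 0.041). Of 20 antioxidant enzymes 1 was called and 5.00% were higher under all 4 scalings, fewer than the 9.15% of all genes. It was glutathione peroxidase LOC111901139, which had 123, 201 and 152 FPKM in Las_SL, against 52.0, 58.0 and 83.8 FPKM in Las_WL (1.29 ± 0.24, adjusted p = 0.033). Their median of 0.23 was close to that of all genes.

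Metallothioneins, cysteine-rich proteins that bind metals, held the most abundant called gene. LOC111902212 had 4195, 4273 and 4204 FPKM in Las_SL, against 862, 1047 and 2104 FPKM in Las_WL (1.77 ± 0.41, adjusted p = 0.045). Metallothionein 1 LOC111896763 had 2226, 1429 and 1921 FPKM in Las_SL, against 374, 577 and 1095 FPKM in Las_WL, and did not pass the test (1.56 ± 0.44, adjusted p = 0.069). The Las_WL values of these genes were less even than the Las_SL values, with Las_WL 3 the highest of its group. MSTRG.12949, a locus without a description, followed in abundance among the called genes, with 1867, 2149 and 1704 FPKM in Las_SL, against 211, 527 and 862 FPKM in Las_WL (2.05 ± 0.49, adjusted p = 0.049).

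Legumains, vacuolar proteases that process other proteins, gave 2 called genes of large effect. LOC111906083 had 1467, 1231 and 1520 FPKM in Las_SL, against 85.4, 210 and 498 FPKM in Las_WL (2.75 ± 0.58, adjusted p = 0.039). LOC111877663 had 119, 145 and 88.9 FPKM in Las_SL, against 6.07, 6.63 and 21.5 FPKM in Las_WL (3.45 ± 0.44, adjusted p = 0.024). Another legumain, LOC111892189, passed the adjusted p but not the fold threshold (1.00 ± 0.17, adjusted p = 0.029). The carbohydrate oxidase LOC111912378, an enzyme that oxidizes sugars and releases hydrogen peroxide, had 530, 831 and 682 FPKM in Las_SL, against 59.3, 55.0 and 115 FPKM in Las_WL (3.20 ± 0.31, adjusted p = 0.020). LOC111912378 was also called after quantile normalization (adjusted p = 0.048).

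Among pathogenesis-related proteins and chitinases, 4 of 44 were called up (9.09%, against 2.75% of all genes) and 1 down (2.27%, against 0.203%). Snakin-2 LOC111877950, a small antimicrobial peptide, had 114, 477 and 123 FPKM in Las_SL, against 4.17, 11.6 and 29.7 FPKM in Las_WL (3.91 ± 0.75, adjusted p = 0.034), and Las_SL 2 was far above the other libraries. Thaumatin LOC111884195 had 6.75, 16.0 and 10.6 FPKM in Las_SL, against 0.959, 1.497 and 2.88 FPKM in Las_WL (2.11 ± 0.46, adjusted p = 0.041). The called-down member, LOC111894813 of the allergen V5 family, had 1.81, 0.134 and 0.896 FPKM in Las_SL, against 4.99, 4.41 and 4.08 FPKM in Las_WL (-1.59 ± 0.34, adjusted p = 0.040). NB-ARC receptors, which detect pathogens inside the cell, were separated higher in 47 of 126 as deposited but in 5 of 126 (3.97%) under all 4 scalings, below the 9.15% of all genes. Of 63 heat shock proteins and factors 3.17% were called up, a share near the 2.75% of all genes. They were the 2 heat shock factors LOC111921682 (1.39 ± 0.22, adjusted p = 0.026) and LOC111896944 (1.13 ± 0.25, adjusted p = 0.043).

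The remaining genes with the largest increase had little annotation. LOC111877325, an unnamed product, had 53.0, 42.6 and 58.7 FPKM in Las_SL, against 2.23, 5.75 and 9.10 FPKM in Las_WL (3.11 ± 0.43, adjusted p = 0.024). LOC111896317, described as PDH2, had 12.3, 64.9 and 23.1 FPKM in Las_SL, against 1.64, 2.25 and 3.46 FPKM in Las_WL (3.04 ± 0.51, adjusted p = 0.028). LOC111881993 (2.97 ± 0.66, adjusted p = 0.041) and LOC111912190 (2.95 ± 0.58, adjusted p = 0.036) are annotated as hypothetical proteins.

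Water channels had the most members lower in high light under all 4 scalings among the gene groups, though not the largest share. Aquaporins pass water and small solutes through the plasma membrane and the vacuolar membrane, and 6 of 37 tested members were called down (16.2%, against 0.203% of all genes) and 1 up. Under all 4 scalings 15 were lower (40.5%, against 2.53%) and 2 higher. LOC111882972 had 3.84, 0.490 and 2.55 FPKM in Las_SL, against 9.27, 40.1 and 94.6 FPKM in Las_WL (-3.54 ± 0.84, adjusted p = 0.048). LOC111893041 was listed at 0, 0 and 0.101 FPKM in Las_SL, against 1.27, 8.66 and 20.6 FPKM in Las_WL (-2.92 ± 0.69, adjusted p = 0.048). LOC111916391 had 12.2, 6.23 and 8.83 FPKM in Las_SL, against 30.6, 44.9 and 114 FPKM in Las_WL (-2.49 ± 0.46, adjusted p = 0.033). In these 3 genes Las_WL 3 was the highest library and Las_WL 1 the lowest of its group, and the groups did not overlap. LOC111891616 (-2.78 ± 0.63), LOC111916390 (-1.89 ± 0.42) and the TIP1-3-like LOC111909461 (-1.71 ± 0.31) were also called.

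More abundant aquaporins were separated without passing the test. The plasma membrane aquaporin PIP2 LOC111906255 had 304, 96.5 and 232 FPKM in Las_SL, against 570, 362 and 462 FPKM in Las_WL (-1.26 ± 0.45, adjusted p = 0.12). LOC111886019 had 309, 5.04 and 202 FPKM in Las_SL, against 918, 515 and 386 FPKM in Las_WL (-2.97 ± 1.32, adjusted p = 0.20), where Las_SL 2 stood far below the rest. The NIP2-1-like LOC111885315 ran the other way, with 1.74, 1.75 and 2.18 FPKM in Las_SL, against 0, 0.174 and 0.536 FPKM in Las_WL (1.24 ± 0.24, adjusted p = 0.034). The list median was -0.81 as deposited, -0.95 after quantile normalization and -0.40 without Las_SL 2 and Las_WL 1. The medians of all genes were 0.18, -0.01 and 0.36. Without these 2 libraries 22 of 37 members were lower and 6 higher, where all genes gave 8.94% and 64.8%. Neighbouring copies such as LOC111916389, LOC111916390 and LOC111916391 could share reads, so that their values may not be independent.

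The gene with the largest decrease was carbonic anhydrase 3 LOC111920498, of the enzymes that interconvert CO2 and bicarbonate. It had 126, 7.77 and 20.6 FPKM in Las_SL, against 230.1, 779 and 803 FPKM in Las_WL (-4.18 ± 1.00, adjusted p = 0.049). A second member, carbonic anhydrase 1 LOC111904288, had 112, 14.02 and 30.1 FPKM in Las_SL, against 114, 272 and 351 FPKM in Las_WL, and did not pass the test (-2.57 ± 0.73, adjusted p = 0.072). Another member, LOC111899045, was called in the other direction with 31.1, 47.2 and 28.9 FPKM in Las_SL, against 9.25, 12.2 and 19.9 FPKM in Las_WL (1.34 ± 0.28, adjusted p = 0.039). The 7 tested carbonic anhydrases thus had no common direction.

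Rubisco small subunits, the nuclear-encoded part of the CO2-fixing enzyme, differed by gene copy in the size of their change. LOC111908252 had 201, 43.2 and 37.3 FPKM in Las_SL, against 310, 722 and 1310 FPKM in Las_WL (-3.25 ± 0.73, adjusted p = 0.043). Its neighbour LOC111908253 had 99.8, 23.7 and 17.2 FPKM in Las_SL, against 192, 384 and 821 FPKM in Las_WL (-3.47 ± 0.73, adjusted p = 0.039). The most abundant copy, LOC111917913, had 11390, 7685 and 8959 FPKM in Las_SL, against 4901, 17320 and 14650 FPKM in Las_WL (-0.22 ± 0.63, adjusted p = 0.88). Its groups overlapped through Las_WL 1, the lowest library. Thus 2 of 5 tested loci were called down, both of low abundance beside the main copy. LOC111908248, LOC111908250, LOC111908252 and LOC111908253 lie close together on chromosome 2 of Lsat_Salinas_v11. Reads could be shared between such neighbouring copies, whose sequences were not compared.

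Light-harvesting chlorophyll a/b proteins, the antennae of the photosystems, had a median log2 fold change of -0.43, against 0.18 for all genes. Of 24 members 0 were called (limma), 0 were higher and 3 were lower and separated (12.5%, against 2.89% of all genes). Under all 4 scalings 8.33% were lower, against 2.53% of all genes. LOC111877753 had 173, 59.9 and 104 FPKM in Las_SL, against 282, 525 and 341 FPKM in Las_WL (-1.84 ± 0.49, adjusted p = 0.062). LOC111908061 had 68.3, 18.3 and 43.8 FPKM in Las_SL, against 239, 167 and 107 FPKM in Las_WL (-2.06 ± 0.64, adjusted p = 0.088). The sum of all 24 was 18440, 17060 and 14060 FPKM in Las_SL, against 12500, 31780 and 24520 FPKM in Las_WL. Only Las_WL 1 kept these groups from separating. Without Las_SL 2 and Las_WL 1, chosen after the data were seen, all 24 members were lower, where 8.94% of all genes were lower and 64.8% were higher. The list median was then -0.81.

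The photosystem and Calvin cycle lists had smaller median changes than the antennae, -0.08 and -0.19. Of 57 photosystem and electron transport proteins, 0 were called by limma. As deposited, 2 were higher (3.51%, against 27.3% of all genes) and 1 was lower (1.75%, against 2.89%). Without Las_SL 2 and Las_WL 1, 31 of the 57 were lower and 12 higher, where all genes gave 8.94% and 64.8%. Of 20 Calvin cycle enzymes other than Rubisco, 0 were called and 2 were lower, among them a fructose or sedoheptulose bisphosphatase, LOC111889456, with 18.1, 10.01 and 13.4 FPKM in Las_SL, against 23.7, 27.9 and 26.6 FPKM in Las_WL (-0.90 ± 0.25, adjusted p = 0.070). The photoprotective protein PsbS (LOC111897400) overlapped between the groups (-0.58 ± 0.32), as did violaxanthin de-epoxidase LOC111889374 (MSTRG.23706, -0.53 ± 0.37). Chlorophyll and tetrapyrrole enzymes, carotenoid enzymes and photorespiration enzymes of the lists by name held no called gene. Their medians were -0.12, 0.15 and 0.01 over 18, 19 and 15 members. The broader KEGG annotation gave other counts, with 15 of 131 genes called up and 1 down in porphyrin and chlorophyll metabolism (17.6% higher under all 4 scalings, against 9.15%). Carotenoid biosynthesis had 2 of 53 called up and 2 down. Over all genes 2.75% were called up and 0.203% down.

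Sugar and starch genes held calls in both directions. β-Fructofuranosidase LOC111877668, an invertase that splits sucrose, had 20.7, 15.9 and 21.2 FPKM in Las_SL, against 44.8, 46.7 and 50.9 FPKM in Las_WL (-1.27 ± 0.16, adjusted p = 0.024). The spread within each group was small, and the groups did not overlap. Of 35 starch and sucrose enzymes 7 were lower and 1 higher under all 4 scalings, where all genes gave 2.53% lower and 9.15% higher. The lower ones included granule-bound starch synthase LOC111921607 (-0.68 ± 0.23, adjusted p = 0.10) and isoamylase LOC111893167 (-0.36 ± 0.17, adjusted p = 0.21), which did not pass the test. With Las_SL 2 and Las_WL 1 left out, 13 of 33 members were lower and 11 higher, where all genes gave 8.94% and 64.8%. The list median was then -0.03, against 0.36 for all genes. The 2 called sugar transporters, of 22 tested (9.09%, against 2.75% of all genes called up), were higher. The ERD6-like LOC111917622 had 55.3, 60.7 and 59.0 FPKM in Las_SL, against 13.7, 21.0 and 29.5 FPKM in Las_WL (1.47 ± 0.25, adjusted p = 0.028), and the SWEET transporter LOC111876948 had 4.01, 6.26 and 4.04 FPKM in Las_SL, against 0.930, 1.06 and 0.763 FPKM in Las_WL (1.57 ± 0.32, adjusted p = 0.037).

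Of 22 nitrate and ammonium genes tested, 1 was called up (4.55%, against 2.75% of all genes). As deposited, 6 were higher (27.3%, against 27.3%) and 2 lower (9.09%, against 2.89%) and separated. Under all 4 scalings 3 were higher (13.6%, against 9.15%) and 2 lower (9.09%, against 2.53%). The 2 lower ones were the reductases. Ferredoxin-nitrite reductase LOC111897687 had 15.3, 15.8 and 14.4 FPKM in Las_SL, against 23.5, 94.0 and 111 FPKM in Las_WL (-1.98 ± 0.51, adjusted p = 0.058). Nitrate reductase LOC111902813 was lower at 0.282 to 0.293 FPKM in Las_SL, against 0.822 to 3.70 FPKM in Las_WL (-1.12 ± 0.31, adjusted p = 0.067). Glutamine synthetase LOC111877855, which binds the ammonium formed, was called up, with 19.0, 16.9 and 21.0 FPKM in Las_SL, against 7.71, 9.21 and 8.25 FPKM in Las_WL (1.09 ± 0.22, adjusted p = 0.038). The reductases did not pass the test. By gene ontology, nitrate transmembrane transporter activity had 5 of 16 members called up and 0 down, and nitrate assimilation 4 of 36 up and 1 down. All genes gave 2.75% called up and 0.203% down.

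Cytokinin genes were called in both directions. Of 30 genes of cytokinin signalling and metabolism, 2 were called up (6.67%, against 2.75% of all genes) and 2 down (6.67%, against 0.203%). Cytokinin oxidase LOC111889585, which degrades the hormone, had 13.6, 8.87 and 9.62 FPKM in Las_SL, against 0.933, 1.84 and 4.05 FPKM in Las_WL (1.93 ± 0.34, adjusted p = 0.030). The LOG enzyme LOC111920731, which releases active cytokinin, had 31.8, 44.7 and 33.6 FPKM in Las_SL, against 2.72, 5.57 and 14.03 FPKM in Las_WL (2.38 ± 0.50, adjusted p = 0.039). Of the genes called down, the CheY-like LOC111881706, of the response-regulator fold, had 10.7, 4.92 and 6.72 FPKM in Las_SL, against 25.4, 26.8 and 19.3 FPKM in Las_WL (-1.60 ± 0.27, adjusted p = 0.028). LOC111917732, with the CHASE domain of cytokinin receptors, had 5.17, 1.58 and 3.70 FPKM in Las_SL, against 15.4, 10.1 and 10.2 FPKM in Las_WL (-1.59 ± 0.33, adjusted p = 0.038). Other members with these domains were higher. The ontology term cytokinin-activated signaling pathway had 19 of 44 members higher and 6 lower as deposited (43.2% and 13.6%, against 27.3% and 2.89%). Under all 4 scalings 13 were higher (29.5%, against 9.15%) and 6 lower (13.6%, against 2.53%). Of these 44, 3 were called up and 2 down, where all genes gave 2.75% and 0.203%.

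Gibberellin 3β-hydroxylase LOC111909350, which makes the active hormone, had 7.18, 8.48 and 9.13 FPKM in Las_SL, against 0.143, 0.434 and 2.55 FPKM in Las_WL (2.36 ± 0.51, adjusted p = 0.041). It was the only called gene of 13 gibberellin enzymes and responses (7.69%, against 2.75% of all genes). Under all 4 scalings 4 of the 13 were higher (30.8%, against 9.15%) and 0 lower. The ethylene receptor ETR2, LOC111897216, had 25.8, 37.8 and 29.7 FPKM in Las_SL, against 9.73, 16.0 and 14.1 FPKM in Las_WL (1.18 ± 0.25, adjusted p = 0.039). Lipoxygenase 1 LOC111882177, of the pathway to jasmonate, had 22.1, 27.0 and 29.4 FPKM in Las_SL, against 9.75, 7.31 and 12.5 FPKM in Las_WL (1.34 ± 0.25, adjusted p = 0.032). The auxin list gave 2 of 121 called up (1.65%, below the 2.75% of all genes) and 0 down. Of these the SAUR protein LOC111906996 had 15.9, 24.8 and 18.4 FPKM in Las_SL, against 1.32, 4.74 and 4.88 FPKM in Las_WL (2.25 ± 0.38, adjusted p = 0.028).

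Wall genes were called in both directions. Barwin-like LOC111893307, of the fold of expansins that loosen walls, had 9.79, 1.12 and 7.60 FPKM in Las_SL, against 52.4, 81.5 and 72.5 FPKM in Las_WL (-3.56 ± 0.71, adjusted p = 0.037). A pectinesterase, LOC111908635, had 81.9, 62.0 and 77.1 FPKM in Las_SL, against 40.9, 23.5 and 22.2 FPKM in Las_WL (1.36 ± 0.29, adjusted p = 0.040). LOC111912962, of the concanavalin A-like lectin and glucanase superfamily, had 45.9, 11.3 and 29.7 FPKM in Las_SL, against 290.3, 252 and 91.9 FPKM in Las_WL (-2.87 ± 0.66, adjusted p = 0.045). A DnaJ domain protein, LOC111917852, of the co-chaperones of Hsp70, had 0.656, 0.419 and 1.12 FPKM in Las_SL, against 7.45, 12.6 and 5.07 FPKM in Las_WL (-2.38 ± 0.54, adjusted p = 0.044). All 3 of these lower genes were separated, with Las_SL 2 the lowest of the Las_SL and Las_WL libraries. Of 75 wall expansion proteins, 3 were called up and 1 down (1.33%), where all genes gave 2.75% and 0.203%. Histones (86 tested, 0 called by limma, median 0.04) and DNA replication genes (24 tested, 0 called, median -0.23) followed the libraries rather than the groups. Without Las_SL 2 and Las_WL 1 these medians were 2.17 and 1.10, so that the direction for DNA replication genes turned with the libraries used.

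Terpene synthases of the sesquiterpene lactone pathway, which gives lettuce latex its bitterness, were higher without passing the test. Germacrene A synthase 3 LOC111909135 had 108, 240 and 162 FPKM in Las_SL, against 19.5, 65.9 and 61.6 FPKM in Las_WL (1.88 ± 0.47, adjusted p = 0.055). β-Caryophyllene synthase LOC111899252 (MSTRG.3500) was called down, with 0.222, 0.0872 and 0.196 FPKM in Las_SL, against 8.39, 1.18 and 5.63 FPKM in Las_WL (-2.14 ± 0.47, adjusted p = 0.041). The laticifer markers named above were also higher in Las_SL, and their part in the germacrene values was not tested.

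**Figure D5:**
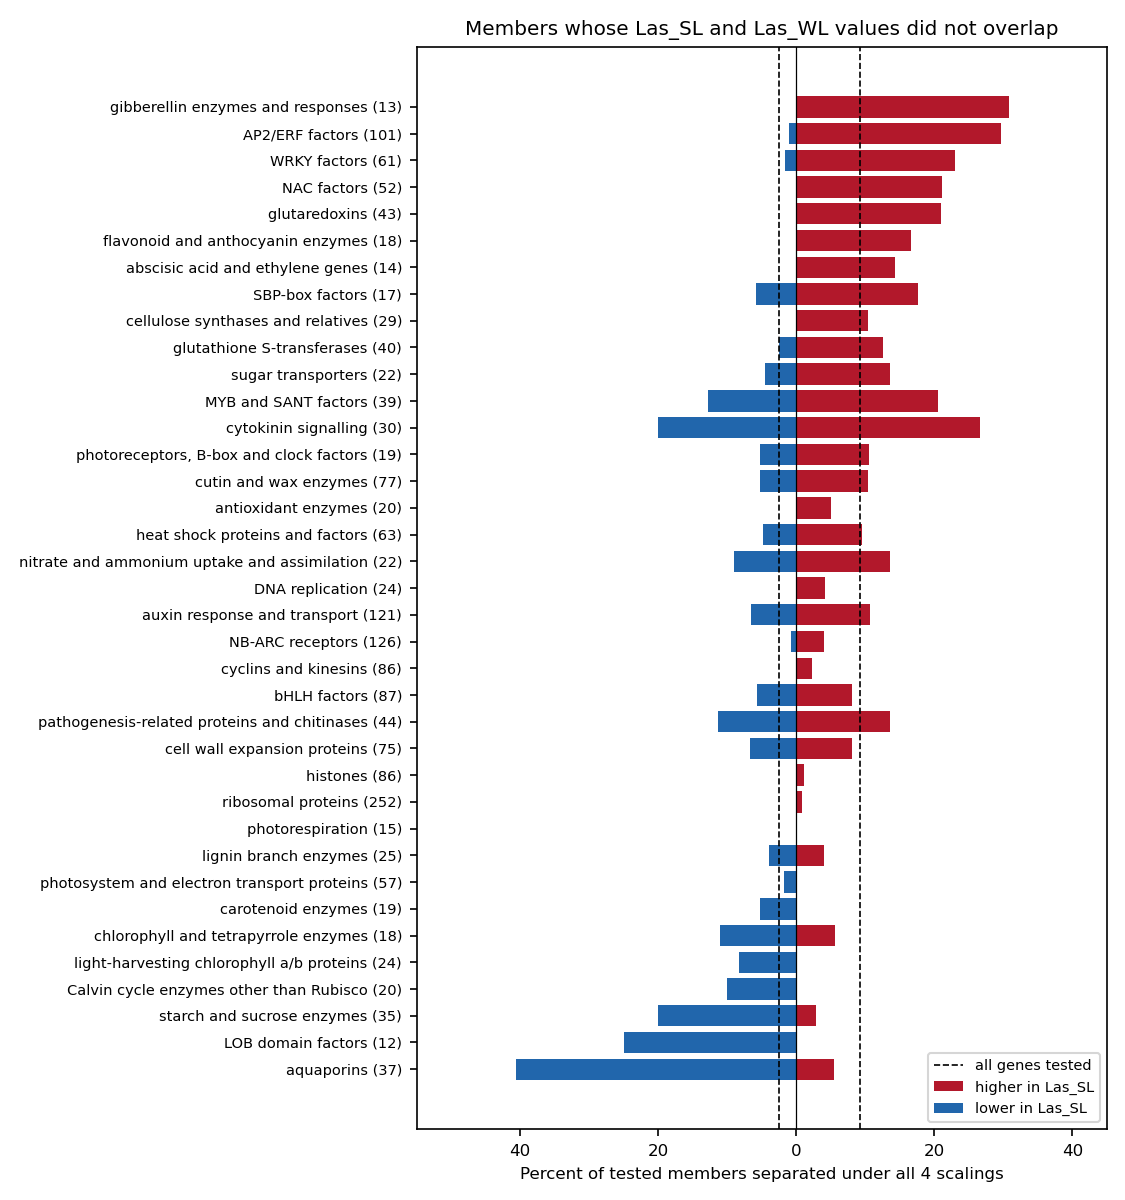
Percent of the tested members of each gene list (number in parentheses, lists of 12 or more) that were higher (red, right) or lower (blue, left) in Las_SL under all 4 scalings, with dashed lines at 9.15% and 2.53% for all genes tested. AP2/ERF factors extend to 29.7% higher and aquaporins to 40.5% lower.

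Gene ontology and KEGG terms group the genes by another annotation, and they are described here without a test. Among the terms with a large share of higher members under all 4 scalings were response to chitin with 31 of 113 (27.4%), the ethylene-activated signaling pathway with 39 of 169 (23.1%), the jasmonic acid mediated signaling pathway with 9 of 33 (27.3%) and protein ubiquitination in ubiquitin-dependent catabolism with 23 of 107 (21.5%). Water channel activity had 16 of 43 lower (37.2%), starch biosynthetic process 5 of 25 and chloroplast thylakoid lumen 7 of 49 (14.3%). Of the KEGG pathways, the share of higher members was 6 of 14 in benzoxazinoid biosynthesis (42.9%), 4 of 17 in isoflavonoid biosynthesis (23.5%), 17 of 73 in limonene and pinene degradation (23.3%), 8 of 35 in diterpenoid biosynthesis (22.9%) and 13 of 60 in SNARE interactions (21.7%). Such terms are given by similarity, and lettuce need not make the named product. The ribosome pathway had 18 of 437 higher (4.12%), fewer than the 9.15% of all genes.

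The intermediate dose lay between the others for most called genes. Of the 718 genes called up, the Las_ML mean fell between those of Las_WL and Las_SL in 681 (94.8%), and of the 53 called down in 51 (96.2%), against 60.5% of all genes tested. These genes were chosen by the end points, and no test was made. The median step of the genes called up was 0.83 log2 units between 60 and 175 µmol and 0.53 between 175 and 340 µmol, and that of the genes called down was -0.80 and -0.57. In 499 of the 718 and 32 of the 53, Las_ML was closer to Las_SL than to Las_WL. Single steps hardly passed the test: 1 gene, MSTRG.24322, which has no description, was called between Las_SL and Las_ML, and 0 between Las_ML and Las_WL (limma), with 1416 and 3519 genes at an unadjusted p below 0.05. MSTRG.24322 had 0.369, 0.392 and 0.415 FPKM in Las_WL, 0.176, 0.387 and 1.27 in Las_ML and 11.6, 13.3 and 12.7 in Las_SL.

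Named genes differed in where along the dose their change lay. Chalcone synthase LOC111882072 was already at 391, 125 and 230 FPKM in Las_ML, and its Las_ML mean was above that of Las_SL. Dihydroflavonol 4-reductase LOC111897350, with 329, 76.1 and 147 FPKM in Las_ML, and glutathione S-transferase LOC111880263, with 220, 84.6 and 124 FPKM, had the same order, each with Las_ML 1 as its highest library. By contrast, the AP2/ERF factor LOC111905115 had 3.20, 4.23 and 11.9 FPKM in Las_ML, and the Myb4-like LOC111881326 had 1.13, 1.66 and 5.93 FPKM, values that overlapped those of Las_WL. The CheY-like LOC111881706 had 18.6, 25.1 and 25.5 FPKM in Las_ML, within the Las_WL range or just below it, and all 3 Las_SL values lay under these. The invertase LOC111877668 (27.5, 35.8 and 33.3 FPKM in Las_ML) and the LOB factor LOC111887027 (5.36, 4.42 and 4.35 FPKM) were separated from both other groups, in order of the dose.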

How the data were processed

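Leaf RNA of 9 libraries was sequenced, 3 per light group. The authors trimmed the reads with Cutadapt and aligned them to Lsat_Salinas_v7 with Bowtie2 and TopHat2. The processing notes given with the samples name Bowtie 0.12.2, HISAT2 2.0, StringTie 1.3.0 and the mouse build mm8. The paper describes rRNA depletion and RNase R digestion, the labels poly(A) selection, and levels may depend on which was used. The authors deposited FPKM per gene, and the circRNA counts were not used here. The study lists the reads of each library, which were not used here, and the FPKM table holds no counts per gene, so precision was judged from the 3 replicates alone.

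FPKM were tested as log2(FPKM + 1) with limma 3.58.1 (trend) in R 4.3.3 over all 9 libraries, for genes averaging 0.5 FPKM or more in Las_SL and Las_WL. Fold changes on this scale understate those of low genes. A call needed a Benjamini-Hochberg adjusted p under 0.05 and a log2 fold change of 1 or more in either direction. SE are limma's. The test was tested on simulated data. Genes named by rule were the 10 with the largest change in each direction (called, separated, described), the 3 most abundant, and up to 2 per list and direction. Other genes in the text were chosen after their values were seen. The 46 gene lists match the descriptions or KEGG terms of the table, and 6 marker lists were added. The members and lists were chosen with earlier results of these data known. Names of 22159 of 26121 genes matched RefSeq (Lsat_Salinas_v11), used only for neighbours. Alternatives were other pseudocounts, filters and scalings, 6 libraries only, a replicate block, other thresholds and each library left out. Median-centring and the joint removal of 2 libraries were added after seeing the data. Figures were drawn with matplotlib 3.10.9.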

Additional observations from a re-analysis of the deposited data

How the results depend on the processing

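The number of called genes depended on the processing. A called gene among the 80 named by the rule was called in 3 to 12 of the 19 alternatives. Their direction was kept, but they were chosen as separated between the groups, and most alternatives cannot turn the sign of such a gene. Genes called up and down numbered 5 and 1 after quantile normalization, 299 and 26 without the 10 most abundant genes in the scaling, 1 and 0 with the 6 libraries alone, 5 and 2 after median-centring, and 809 and 162 without Las_SL 2 and Las_WL 1 (the last 2 alternatives were chosen after seeing the data). They were 1436 and 212 with an unadjusted p, and 1490 and 69 with no fold threshold. Without the filter on low values 30 genes were called down. Leaving out each library in turn gave 0 to 916 genes up and 0 to 242 down (limma). Without Las_SL 3 the count was 0 in both directions, with 4965 genes at an unadjusted p below 0.05, and without Las_ML 2 or Las_ML 3 it was 6 up and 0 down. Separated genes were 3924 higher and 409 lower at a mean FPKM of 5 or more, 3104 and 2452 after quantile normalization, 2546 and 2862 after median-centring, 16527 and 2281 without Las_SL 2 and Las_WL 1, and 7118 to 12801 and 754 to 1866 with 1 library left out. Las_ML lay between in 732 of the 771 genes called as first set out. At a mean FPKM of 5 or more the number was 463 of these same genes, since fewer of them passed the filter. The fit with the replicate block called 0 genes up and 0 down (limma, lowest adjusted p = 0.073, and 6342 genes at an unadjusted p below 0.05). The correlations of same-numbered Las_SL and Las_WL libraries, each centred on its group mean, were 0.56, 0.42 and -0.27. The methods name no batch, and whether libraries of the same number shared one was not tested. The cause of these changes was not tested, apart from the smaller number of genes or libraries where some were left out. The FPKM hold no counts per gene, and 3 replicates per group limit the precision.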
